A study of Mus musculus with 36 samples.

Results

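The Gvin1 cluster is a group of 6 neighbouring genes on mouse chromosome 7 (Gm4070, Gm8979, Gvin1, Gm8989, Gm4759 and Gm1966). It was described here in domain maps of replication timing (RT), the order in which parts of the genome are copied during S phase. The 6 genes were chosen by the RT states of their region in 3 domain maps, late in one B cell map and early in the other, out of 22350 protein-coding genes annotated on 19 autosomes and X. Their states are therefore given as a description, without a test. The CH12 map came from 4 libraries of CH12 shLacZ, a mouse B lymphoma line infected with a lentivirus whose hairpin against LacZ served as the control for infection. The line was 1 clone with intact Rif1. The primary B map (priB WT) came from 4 libraries of splenic B cells of Rif1+/+ mice, activated in culture. In both groups, 2 replicates of an early and a late S-phase fraction were labelled with BrdU and sorted. The third map, of mouse embryonic fibroblasts (MEF WT), is tied to no sample by the labels, and the study took its fibroblast reads from earlier work. The other 5 groups of the 36 libraries, with Rif1 deleted or Mcm6 depleted, had no domain map here.

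Gvin1 encodes a very large interferon-inducible GTPase, also called VLIG-1, whose protein is read from a giant coding exon. Interferons, the signals that cells release on infection, induce several families of GTPases, among them the guanylate-binding proteins (Gbp), the immunity-related GTPases (Irg) and the Mx proteins. Their genes tend to lie in clusters of related copies. Active, gene-rich chromatin is mostly copied early in S phase, and clusters of olfactory receptor genes, which are silent outside the nose, are mostly copied late.

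Each map gave 1 of 3 states, early, middle or late, to 20 kb bins. The states were called from the early over late read ratio of the merged replicates. They were called for each map on its own, so a state need not stand for the same ratio in different maps. The study described relatively fewer early domains in primary B than in CH12. In the deposited maps the early state covered 28.6% of bins in primary B and 22.7% in CH12. CH12 and MEF gave a state to 131957 bins and primary B to 128935. The maps held neither the ratio nor a read number, so depth at the locus is unknown and no difference between maps had a replicate check. All 3 maps ended at the chromosome lengths of mm9 on 20 of 20 chromosomes. Early and late domains never touched each other in any map (0 contacts), and protein-coding starts were densest in the early state, with 18.9 per Mb in CH12, 17.6 in primary B and 16.1 in MEF. The late state held 3.76, 2.88 and 3.29 starts per Mb. The maps carried no expression values, so marker genes of the labelled cell types were not checked.

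The members lay in 1 row on the minus strand over 704 kb, chr7:113043632-113747549 (mm9, GENCODE M1). Gm4070 (ENSMUSG00000078606.1) took chr7:113043632-113102484 and Gvin1 (ENSMUSG00000045868.5) chr7:113300049-113358854. Both had 2 exons with 8846 bases in all, of which 8730 lay in 1 exon, and both had 7281 coding bases. Gm8979 (ENSMUSG00000091928.1) at chr7:113219246-113221378 and Gm8989 (ENSMUSG00000091567.1) at chr7:113465910-113468042 each had 1 exon of 2133 bases. Gm4759 (ENSMUSG00000053541.1) at chr7:113565064-113584587 had 3 exons with 3091 bases. Gm1966 (ENSMUSG00000073902.3) at chr7:113744757-113747549 had 1 exon of 2793 bases, all annotated as coding. GENCODE M1 calls all 6 protein-coding. RefSeq (GRCm38.p6) calls Gvin1, Gm4070 and Gm1966 protein-coding and Gm8979, Gm8989 and Gm4759 transcribed pseudogenes, and gives Gm1966 a length of 49098 bases.

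Each of the other members matched all or part of the Gvin1 exons, and Gvin1 and Gm4070 are nearly the same sequence. Over their 8846 exonic bases they differed at 3, which is 99.97% identity, and the longest stretch without a difference was 3098 bases. Counted from the first coding base, with the Gvin1 base first, the differences were G1805T, G4904A and C7075T. The coding stretch around the first of them is shown because, within the exons, 50-base reads differ between the 2 genes only across such bases. The capital marks the first difference, in the stretch at chr7:113306911-113307030 of Gvin1 and chr7:113050494-113050613 of Gm4070 (mm9, minus strand).
Gvin1: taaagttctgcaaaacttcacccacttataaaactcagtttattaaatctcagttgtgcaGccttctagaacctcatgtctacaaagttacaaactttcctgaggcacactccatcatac
Gm4070: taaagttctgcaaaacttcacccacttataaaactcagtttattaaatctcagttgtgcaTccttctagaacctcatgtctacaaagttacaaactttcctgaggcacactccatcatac

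Gm8979 and Gm8989 had 0 differences over their 2133 exonic bases. Their exon matched bases 6290 to 8420 of the Gvin1 exons with 97.05% identity, so both correspond to the end of the giant exon and not to the gene as a whole. Gm1966 matched Gvin1 from its first coding base, over 2792 aligned bases with 92.3% identity. Gm4759 was the most distant member, with 77.0% identity to Gvin1 over its longest alignment of 1814 bases. Gm8979 and Gm8989 matched another part of Gvin1 than Gm1966 did, and shared at most 12 bases in a row with the exons of Gm4759 or Gm1966. A coding stretch of 90 bases is shown because it occurred in Gvin1 (chr7:113302221-113302310), Gm4070 (chr7:113045804-113045893), Gm8979 (chr7:113220994-113221083) and Gm8989 (chr7:113467658-113467747), all mm9 and minus strand. Chromosome 7 held it at these 4 places.
Shared stretch: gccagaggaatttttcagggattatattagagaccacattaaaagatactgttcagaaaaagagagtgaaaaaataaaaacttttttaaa

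The sequences before the starts of some members also resembled each other. The windows of Gm8979 and Gm8989, whose annotated exon begins within the sequence of the giant exon, were the same as each other and differed from that of Gvin1 at 235 of 300 bases compared in place. At the GENCODE start of Gm1966 the number was 243. Gm4759 also differed from Gvin1 in place at 211 bases. A count in place allows no gaps, so by itself it does not measure resemblance. Over the 250 bases before the annotated start, Gvin1 and Gm4759 aligned with 73.6% identity, and the RefSeq start of Gm1966 aligned to Gm4759 with 80.5% and to Gvin1 with 76.5%, gaps counted as differences. The windows of Gvin1 and Gm4070, from 250 bases before to 50 after the start, differed at 1 base. The longest run of bases common to the windows of Gvin1 (chr7:113358855-113359104, mm9), Gm4759 (chr7:113584588-113584837, mm9) and Gm1966 (chr7:106644646-106644895, GRCm38.p6, RefSeq) was 22 bases. It began 67, 79 and 60 bases before the start and is in capitals below. The windows of Gvin1 and Gm4759 are at the starts by which these genes were placed in the maps. That of Gm1966 is at its RefSeq start, 40.6 kb from the GENCODE start by which it was placed (all minus strand).
Gvin1: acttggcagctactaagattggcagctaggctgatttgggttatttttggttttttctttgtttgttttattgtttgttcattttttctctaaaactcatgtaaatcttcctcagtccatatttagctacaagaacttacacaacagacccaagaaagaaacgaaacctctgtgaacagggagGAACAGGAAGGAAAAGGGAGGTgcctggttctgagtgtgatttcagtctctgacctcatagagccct
Gm4759: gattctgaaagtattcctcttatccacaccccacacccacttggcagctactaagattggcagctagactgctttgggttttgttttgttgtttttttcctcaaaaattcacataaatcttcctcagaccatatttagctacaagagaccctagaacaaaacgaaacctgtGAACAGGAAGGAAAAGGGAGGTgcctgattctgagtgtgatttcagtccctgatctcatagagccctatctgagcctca
Gm1966: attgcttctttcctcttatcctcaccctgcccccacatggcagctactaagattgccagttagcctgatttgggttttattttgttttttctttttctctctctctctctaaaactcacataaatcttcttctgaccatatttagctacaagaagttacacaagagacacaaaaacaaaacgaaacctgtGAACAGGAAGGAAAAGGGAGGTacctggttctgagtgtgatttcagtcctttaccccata

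Of the 6 members, only Gm1966 had an entry among the 32851 RefSeq promoters. Its window of 300 bases held 1 interferon-stimulated response element core (GAAANNGAAA, searched on both strands), the bound sequence of interferon-activated factors, as TTTCTTTTTC on the opposite strand, beginning 163 bases before the start. That core was present in 3.44% of all RefSeq promoters. In windows of the same size at the GENCODE starts on mm9, 0 of 6 members held the core, beside 3.79% of 22345 protein-coding starts. The start of Gm1966 differed between the annotations. The RefSeq window matched mm9 exactly at chr7:113788110-113788409, which puts its start 40.6 kb before the GENCODE start, and the states there (late in CH12, early in primary B, late in MEF) were those at the GENCODE start.

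All 6 members were late in the CH12 map and early in the primary B map, the states by which they were chosen. Over the genome, 829 of 128935 bins (0.643%) and 133 protein-coding starts (0.595%) had this pair of states. In MEF, Gm4070, Gm8979, Gvin1, Gm8989 and Gm4759 were middle and Gm1966 was late. The states late, early and middle in that order were found at 72 protein-coding starts (0.322%), 5 of them at this locus. Of the 133 starts late in CH12 and early in primary B, 54.1% were middle in MEF, 30.8% early and 15.04% late. Middle and late, the MEF states of the members, thus made up 69.2% of such starts.

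**Figure D1:**
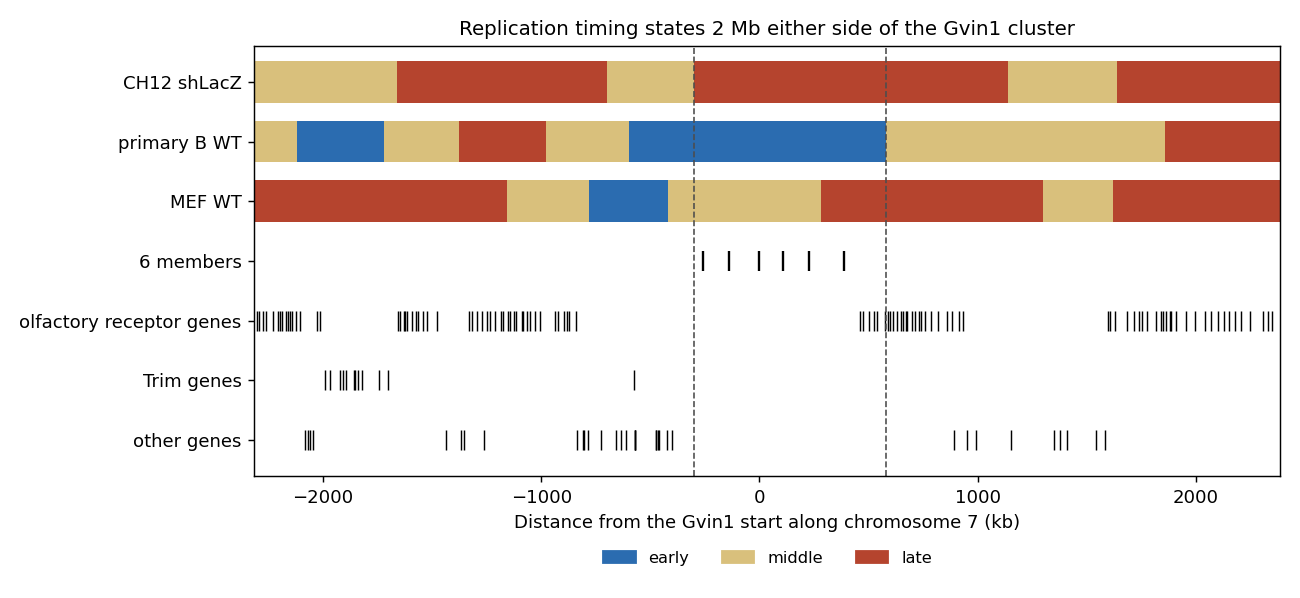
State of every domain in the 3 maps over the members and 2 Mb either side, by distance from the Gvin1 start in kb (colours: early, middle, late), with ticks for protein-coding gene starts. The dashed lines bound the stretch of 880 kb that was late in CH12 and early in primary B, which holds all 6 member starts and begins 299 kb below the Gvin1 start.

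The members shared 1 domain in each B cell map. In CH12 this was a late domain of 1440 kb (chr7:113060001-114500000), which went on far past the last member. In primary B it was an early domain of 1180 kb (chr7:112760001-113940000), which began before the first member. In MEF, 5 members lay in a middle domain of 700 kb (chr7:112940001-113640000) and Gm1966 in the late domain of 1020 kb beside it. The overlap of the CH12 and primary B domains was the stretch of 880 kb, chr7:113060001-113940000. Its 44 bins were middle in MEF at 29 and late at 15.

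The edges of the 3 domains lay at different places. The lower CH12 edge fell inside Gm4070, with 27.8% of the gene body in the middle domain before the edge and 72.2% in the late domain. The Gm4070 start lay 42.5 kb inside the late domain, and the Gvin1 start 299 kb inside. The primary B edges lay further out, 342 kb from the Gm4070 start on one side and 192 kb from the Gm1966 start on the other. The MEF change from middle to late lay 55.4 kb above the Gm4759 start and 108 kb below the Gm1966 start. The ratio had been smoothed over a span of 300 kb before states were called, and each of the 6 member starts lay within 300 kb of an edge in at least 1 map.

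The states changed outside the stretch too. Below it, the first 5 protein-coding genes were Mrpl17 (a mitochondrial ribosomal protein), Dchs1 (a large cadherin), Tpp1 (a lysosomal peptidase), Taf10 (a subunit of the general transcription factor TFIID) and Rrp8 (a nucleolar methyltransferase). All 5 were middle in CH12 and early in primary B. Dchs1, Tpp1, Taf10 and Rrp8 were early in MEF and Mrpl17 was middle. Within the stretch, after Gm1966, came Olfr693 to Olfr695 and Olfr697 to Olfr699, 6 genes for olfactory receptors that were all late in CH12, early in primary B and late in MEF. Above it, the first 5 genes, Olfr700 to Olfr704, were late, middle and late. The early domain of primary B thus held 22 protein-coding starts, of which 6 were members and 6 olfactory receptor genes. In CH12, the domain with the members held 34 starts, of which 25 were olfactory receptor genes.

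Across the members and 2 Mb either side (236 bins), CH12 had no early bin at all (0.00%, Wilson 95% interval to 1.60%), beside 22.7% of all bins of the genome. It was late in 66.9% (60.7 to 72.6) and middle in 33.1%. Primary B was early in 33.5% (27.8 to 39.7), middle in 46.6% and late in 19.9%. MEF was early in 7.63%, middle in 29.7% and late in 62.7% (56.4 to 68.6). Over all bins of the genome with a state, CH12 was late in 49.8% and middle in 27.4%. The genome shares of primary B were 28.6% early, 32.4% middle and 39.0% late, and those of MEF 30.7%, 38.7% and 30.6%. The intervals cover counting over bins alone, and neighbouring bins share a domain. By the names of the states, no bin of the window was later in primary B than in CH12. With no early bin in CH12, only its 78 middle bins could have been later. Later states were rare over the genome too, where 18.8% of protein-coding starts were earlier in primary B and 78.5% were in the same state. Of the bins late in CH12, 44 were early, 67 middle and 47 late in primary B. Of the bins middle in CH12, 35 were early and 43 middle.

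Over much of the locus a short read marks no single place. The authors kept reads of 50 bases that aligned to a single place, so a read whose 50 bases occur more than once in the genome could not be kept. Over the gene body, 1.80% of the 50-base words of Gvin1 (1055 of 58757) and 1.94% of those of Gm4070 (1140 of 58804) occurred once in mm9, counted on both strands. For Gm8979 and Gm8989 the number was 0 of 2084 in each. For Gm4759 it was 80.8% (15739 of 19475), and for Gm1966 87.5% (2400 of 2744). Over the genome, 88.6% of sampled words occurred once, and the median bin had 95.5%. The members thus fell into 4 with almost no unique sequence and 2 close to the level of the genome.

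Most of the repeated words of Gvin1 and Gm4070 were repeated at the locus alone. Over the gene body, 84.4% of the words of Gvin1 had more than 1 copy, all within 1.1 Mb around the members, and 13.8% were also found elsewhere. For Gm4070 the shares were 84.2% and 13.9%. In their exons, 99.1% and 98.9% of words were repeated at the locus alone and 0 were found elsewhere. Gm4759 differed, with 3542 repeated words also found elsewhere and 194 at the locus alone. Most pairs of copies lay at nearly fixed distances. Of the 147617 words with 2 copies in the genome and both at the locus, 74.2% lay 250 to 260 kb apart (median 256.4 kb) and 23.1% lay 240 to 250 kb apart (median 247 kb). The first distance joins a block of 142 kb at chr7:112979604-113121758, with Gm4070, to a second with Gvin1. The other joins a block of 61.8 kb at chr7:113172586-113234340, with Gm8979, to one with Gm8989. The assembly holds a run of 50000 unknown bases between the first blocks of each pair, at chr7:113122389-113172388. The annotated pseudogene 9130208D14Rik, named after its values were seen, shared 21.7% of its exonic words with the members. It lay just below the stretch and was middle in CH12, early in primary B and middle in MEF. Gm8995, a pseudogene between Gm4759 and Gm1966, shared 0.581%.

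**Figure D2:**
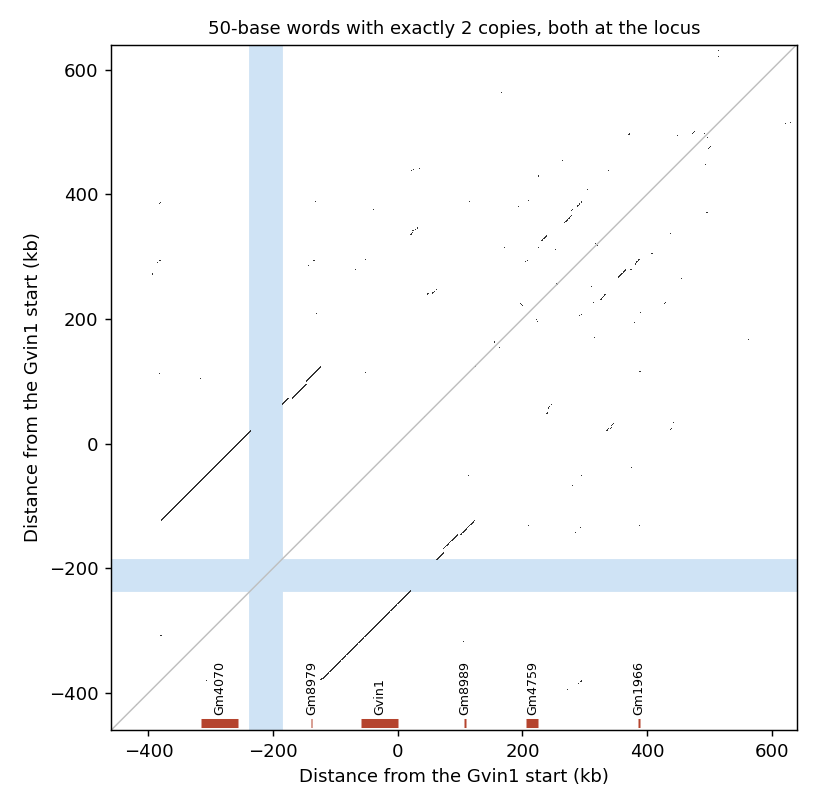
Positions of 50-base words with exactly 2 copies in the genome, both at the locus, by distance of either copy from the Gvin1 start in kb (1 in 5 pairs drawn). Red bars are the members and blue bands the 50000 unknown bases. The long diagonals join Gm4070 to Gvin1 about 256.4 kb apart, and the shorter broken ones Gm8979 to Gm8989, while Gm4759 and Gm1966 lie on none.

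Along the stretch the unique sequence was found mostly on the side of Gm4759 and Gm1966. From chr7:112980001 to chr7:113380000, 20 bins in a row had under 50% unique words or, in 1 of them, no known base, with 4.92% unique over all, and 16 of these bins belonged to the stretch. In all, 20 of its 44 bins were of this kind, with 9.91% of their words unique, and the other 24 bins (480 kb) had 81.6%, between 57.1% and 97.3% a bin. The longest unbroken piece of such bins was 420 kb, chr7:113520001-113940000, which holds the starts of Gm4759 and Gm1966. The bins of the Gm4070, Gm8979, Gvin1 and Gm8989 starts had 1.92%, 13.9%, 2.53% and 18.995% unique words. Those of Gm4759 and Gm1966 had 74.0% and 89.9%. Over 300 kb centred on the start, the span of the smoothing, the share was 5.37% at Gm8979, 14.8% at Gm4070, 24.1% at Gvin1, 46.0% at Gm8989, 65.7% at Gm4759 and 83.5% at Gm1966.

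**Figure D3:**
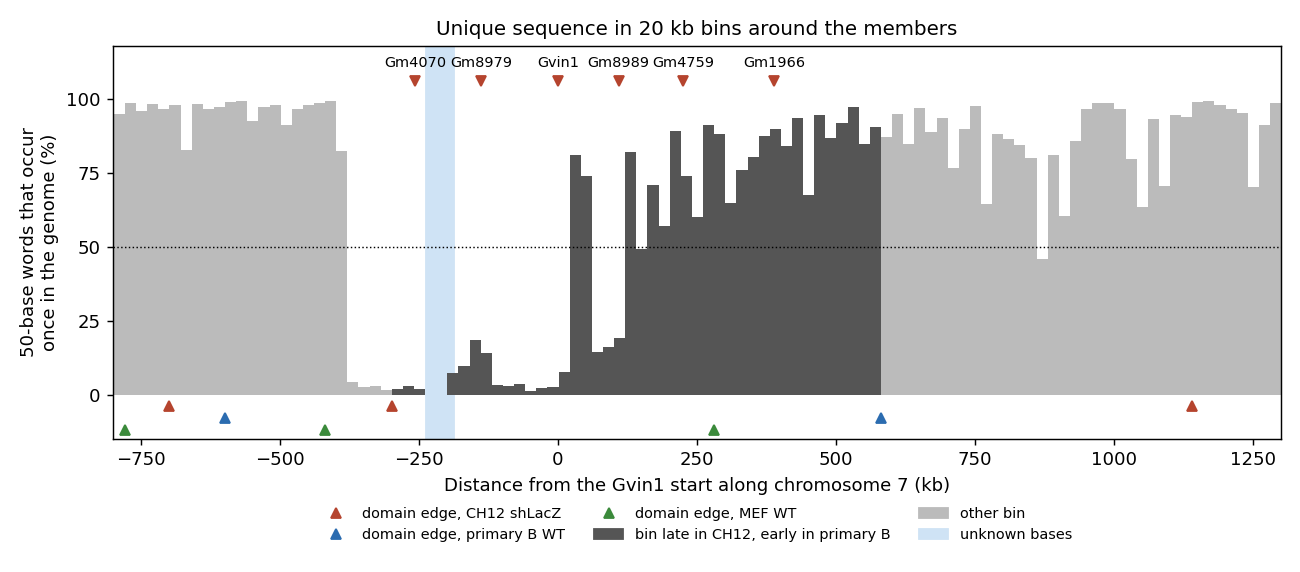
Share of 50-base words that occur once in the genome in each 20 kb bin, by distance from the Gvin1 start in kb, with the member starts (red triangles on top), the domain edges of the 3 maps (triangles below 0) and the 50% level (dotted). Dark bars are the 44 bins late in CH12 and early in primary B. The CH12 edge near -299 kb lies in bins under 3% unique. Every other edge drawn, of CH12, primary B or MEF, lies in bins over 85%.

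By its definition the stretch was late in CH12 and early in primary B over both kinds of sequence, and the 24 bins with 50% or more unique words were middle in MEF at 9 and late at 15. The lower edge of the late CH12 domain lay between bins with 1.47% and 2.03% unique words, inside the first copy of the Gm4070 block. That copy was middle over 80.4 kb and late over 61.8 kb in CH12, while the copy with Gvin1 was late over its whole 142 kb. In primary B both copies were early throughout and in MEF both were middle. The upper edge of the late CH12 domain, outside the stretch, lay between bins with 93.9% and 99.0%. The primary B edges lay in unique sequence, with 97.3% and 98.9% beside the lower edge and 90.6% and 87.3% beside the upper one. The MEF edge between Gm4759 and Gm1966 had 91.1% and 88.3%. How far the repeated sequence bears on the called states was not tested, since the maps hold no read numbers.

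No other stretch of this kind was so poor in unique sequence. Among the 75 stretches of bins late in CH12 and early in primary B, that of the Gvin1 cluster ranked second in length, after 1 of 1380 kb, and lowest in unique words, at 51.3% of sampled words. The other 74 had between 65.0% and 100% (median 94.4%). Counting bins with at least 100 of their 200 sampled words free of unknown bases, 17 of 41 in the stretch with Gvin1 and 2 of 785 in the others were under 50% unique. Over the genome 3.90% of such bins were under 50% unique. In CH12 this share was 0.867% among early, 4.99% among middle and 4.75% among late bins. In primary B it was 1.00%, 6.94% and 3.55%, and in MEF 0.660%, 5.37% and 5.44%, in the same order.

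**Figure D4:**
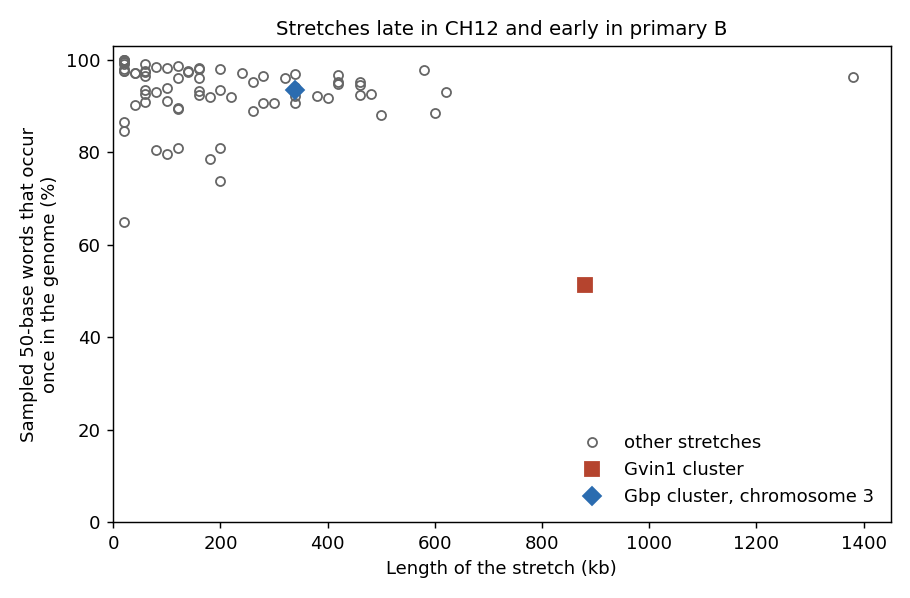
Length in kb and share of sampled 50-base words that occur once in the genome for the 75 stretches late in CH12 and early in primary B, 1 point per stretch. The stretch with Gvin1 (square) lies alone at 880 kb and 51.3%, and the one with the Gbp genes of chromosome 3 (diamond) at 340 kb and 93.6%, among the others.

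Other interferon-inducible GTPase genes were read from the same maps by a list of 26 symbols. GENCODE M1 held 21 of them and called 20 protein-coding. On chromosome 3, Gbp5, Gbp7, Gbp3, Gbp1 and Gbp2 had the states of the members in both B cell maps, late in CH12 and early in primary B, and were early in MEF. Their stretch of 340 kb (chr3:141980001-142320000) had 93.6% unique words and no bin under 50%. On chromosome 5, Gbp8, Gbp9, Gbp4, Gbp10, Gbp6 and Gbp11 were middle in CH12, early in primary B and middle in MEF. On chromosome 11, Irgm1, Igtp and Irgm2 were early in all 3 maps, as were Irgc1 and Irgq on chromosome 7. Tgtp1 was middle, early and middle, and Tgtp2 was early, early and middle, in a bin with 22.5% unique words. Mx1 and Mx2 on chromosome 16 were middle in all 3.

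By the names of the states, the list as a whole was earlier in primary B than in CH12 at 12 of 20 genes, later at 0 and in the same state at 8. Each map was called on its own, and whether such steps reflect timing or the calling of states was not tested. Over all 22350 protein-coding starts, 18.8% were earlier in primary B and 78.5% were in the same state. The 12 genes lay at 3 loci, so they are no independent observations. With the members added, the genes that went from late in CH12 to early in primary B were the Gvin1 cluster and the Gbp genes of chromosome 3, which differed in MEF.

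**Figure D5:**
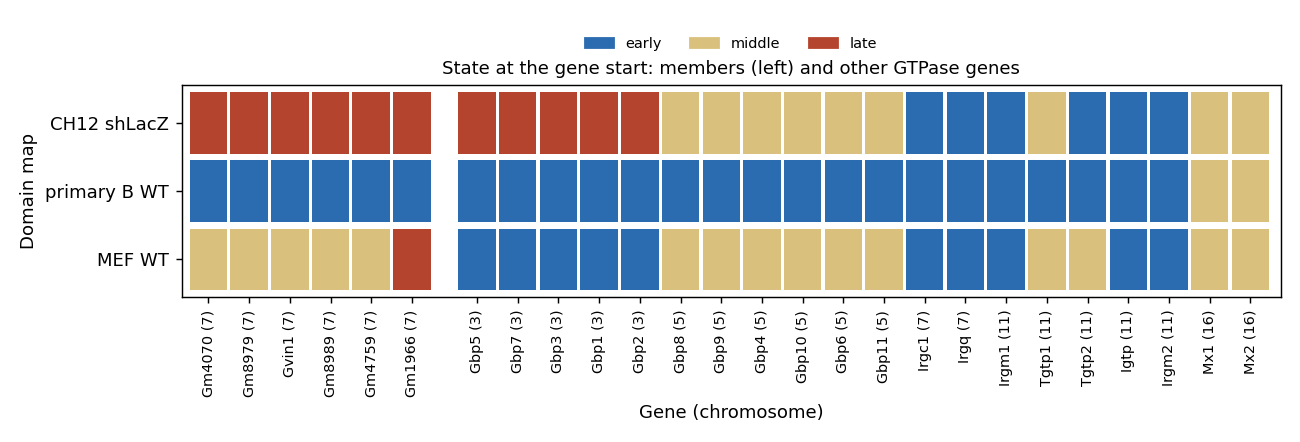
State at the gene start (colours: early, middle, late) in the 3 maps for the 6 members, left, and the 20 listed GTPase genes, right, with the chromosome in brackets. All 6 members and the 5 Gbp genes of chromosome 3 are late in CH12 and early in primary B. Among these, only the Gbp genes are early in MEF. Of all 20 listed genes, 10 are early in MEF, beside 58.6% of all protein-coding starts.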

How the data were processed

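The authors trimmed reads of 50 bases with Trim Galore 0.6.5, aligned them to mm9 with BWA 0.7.17, kept unique alignments with SAMtools 1.9, merged the 2 replicates, removed duplicates, divided early by late reads (log2) in 20 kb windows, smoothed it over 300 kb and called 3 states with a hidden Markov model (per the methods and the submitters' processing notes, which also name bedtools 2.29.2 and deepTools). The deposited maps give domain limits and a state number. States 2, 1 and 0 were read as early, middle and late in CH12 and primary B, and 0, 2 and 1 in MEF, checked by contacts and gene density. With 1 merged map per condition no test was made.

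Genes were placed by their GENCODE M1 start. Exact words of 50 bases were counted on both strands over the 211 sequences of NCBIM37 (mm9), at every position within 2 Mb of the members and at every 100th base elsewhere, with Python 3.11.15, numpy and numba, tested on simulated data. Copies were aligned with blastn. RefSeq tables (GRCm38.p6) gave names and 1 promoter.

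The members and gene lists were chosen with earlier results of these data known. Genes named are the members, protein-coding genes in the stretch, the first 5 beyond either end, the GTPase list and 8 genes elsewhere with the states of Gvin1 in the longest stretches. The Trim genes of the window and the pseudogenes 9130208D14Rik and Gm8995 were named after their values were seen. Other placements, windows, word lengths and filters were tried, and 3 alternatives were chosen after seeing the data. A second promoter motif that was searched is not reported here.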

Additional observations from a re-analysis of the deposited data

How the results depend on the processing

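No paired analysis was possible because each map was called on merged replicates, so leaving out a replicate could not be done either. The number of members late in CH12 and early in primary B was 6 by gene start, midpoint or most of the body. The stretch with Gvin1 stayed at 880 kb when domains under 100 kb were absorbed or stretches up to 40 kb apart were joined. It was 680 kb without bins within 100 kb of an edge. Without bins under 50% unique words, an alternative chosen after seeing the data, it was 480 kb, with 420 kb in 1 piece. Within 1 Mb, 75.7% of bins were late in CH12, 43.4% early in primary B and 43.4% late in MEF. Within 2 Mb, without the bins under 50% unique (again chosen after seeing the data), 25.6% were early in primary B and 69.1% late in MEF. The main values there were 33.5% and 62.7%, and the shares of the genome 28.6% and 30.6%. Primary B was thus above the genome share of early bins in the main setting and below it without these bins. Base pairs and the removal of unknown bases kept the main shares within their intervals, and CH12 had 0 early bins under every setting.

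Unique words of all members together were 14.1% at 50 bases, 12.2% at 36, 17.95% at 100 and 19.9% in exons. In that order of alternatives they were 1.06%, 4.70% and 0.869% for Gvin1, 1.24%, 4.78% and 1.14% for Gm4070, and 72.9%, 90.2% and 97.2% for Gm4759. For Gm1966 they were 73.1% at 36 and 99.6% at 100. Distances to edges did not change when domains under 100 kb were absorbed, and the genome-wide shares of bins and starts kept within their intervals. The response element was in 3.44% of RefSeq promoters, and with 1 mismatch in 35.4%. At GENCODE starts, 3.79% and 0 of 6 members held it without a mismatch, and 35.02% and 6 of 6 members with 1.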

Other observations

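The window held a second early domain of primary B, and this one was early in neither of the other maps. It covered 400 kb at chr7:111240001-111640000 (mm9), was middle in CH12 and late in MEF, and had 76.9% unique words. The genes in it, named after their states were seen, were mostly tripartite motif genes, a family that includes interferon-induced antiviral restriction factors. Trim6, Trim34a, Trim5, Trim12a, Trim34b, Trim12c, Trim30c, Trim30a and both annotated Trim30b genes started in this domain, and Trim30d started just above it, in a domain that was middle in primary B. Counted with Trim3, which lay in the early domain of the members, 11 of the 12 Trim starts of the window were early in primary B, 12 were middle in CH12 and 11 were late in MEF. Over all protein-coding starts, 58.0% were early in primary B, 27.2% middle in CH12 and 11.9% late in MEF. The 105 olfactory receptor genes of the window were late at 86 and middle at 19 in CH12, early at 9, middle at 60 and late at 36 in primary B, and middle at 18 and late at 87 in MEF. Over all protein-coding starts, 22.1% were late in CH12. Of the same starts, 29.1% were middle and 12.9% late in primary B, and 29.6% were middle in MEF.

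Outside the window, 67 protein-coding starts had the states of Gvin1, late in CH12, early in primary B and middle in MEF. At this locus the bins with these states covered 580 kb without a break. The longest such piece elsewhere covered 600 kb on chromosome 3 and held Pag1, an adaptor protein of lymphocyte membranes, with Gm9833, Pmp2 and the fatty acid-binding protein genes Fabp5, Fabp9 and Fabp4. The next, of 480 kb on chromosome 18, held Taf4b, a subunit of a form of TFIID, and Kctd1.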
